A study of Mus musculus with 6 samples.

Results

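The hemoglobin and erythroid genes described here are Hba-a1, Hba-a2, Hbb-b1, Hbb-b2 and Alas2, taken by symbol from the deposited expression table as a read of the blood left in each dissection. These 5 genes are 5 of 21881 distinct symbols, and they fill 7 of the table's 22310 rows, since Hba-a1 and Hba-a2 stand on several rows each. The samples are pools of adult olfactory epithelium, the tissue that holds the odor-sensing neurons, from NMRI mice. They are wild type (WT) or NKCC1-/- (KO), without the ion cotransporter that the gene Slc12a2 encodes. Each genotype has 3 libraries. The mixed pools hold 2 epithelia per sex, while a male pool and a female pool hold 3 mice apiece. The labels give no age beyond adult, do not say how the null allele was made, and do not say whether the mice were perfused or whether any mouse is in more than 1 pool. The labels name no agent. The p-values therefore measure the spread between pools, not between mice.

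Hemoglobin carries oxygen in red blood cells as a tetramer of alpha and beta globin chains around heme. Hba-a1 and Hba-a2 encode the adult alpha chain and Hbb-b1 and Hbb-b2 the adult beta chains. Alas2 encodes the erythroid form of 5-aminolevulinate synthase, which starts heme synthesis and is used by developing red cells, while Alas1 serves that step in other tissues. Circulating red cells of mammals have no nucleus, and young ones, the reticulocytes, still hold globin mRNA. In a piece of tissue these transcripts therefore follow the blood in the vessels and any marrow in adjoining bone. In bulk RNA, fewer cells of a type and less RNA per cell cannot be told apart.

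Values are FPKM, fragment counts scaled to transcript length and library size. Where 3 values are given for a genotype, they stand in the order mixed, male, female. The labels' protocols name a normalization with duplex-specific nuclease, which digests abundant double strands first, so levels of the most abundant transcripts are lowered relative to the rest. From the low values, depth was estimated at 3580000 (WT) and 3890000 (KO) fragments in the mixed libraries and at 11190000 to 14190000 in the remaining 4. The targeted gene, Slc12a2, was at 83.3, 40.2 and 35.99 FPKM for WT and 28.0, 16.1 and 18.0 for KO. The KO libraries were all below the WT libraries, with an adjusted p of 0.11 (limma). Omp, the marker of mature olfactory neurons, was at 1209 to 2977 FPKM over the 6 libraries, and Cyp2g1, an enzyme of supporting cells and glands, at 1285 to 3090, as the tissue label has it.

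The alpha globin genes are near-identical copies, and the sequences that follow show how little there is to tell them apart. The coding sequences of both genes in the GENCODE transcripts of build GRCm38 are 429 bases long and differ at 1 base, C381T, counted from the first base of the start codon with the Hba-a1 base first. It is the third base of codon 127 and leaves the protein unchanged. Coding bases 351 to 411 are given, with the base that differs in capitals.
Hba-a1: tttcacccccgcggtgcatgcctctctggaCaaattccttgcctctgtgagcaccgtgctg
Hba-a2: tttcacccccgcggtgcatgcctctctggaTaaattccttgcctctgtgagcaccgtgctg
Over the 538 bases that both annotated transcripts share, this was the only difference. Of the 438 windows of 101 bases in that stretch, the length that the design text gives for the sequenced fragments, 101 windows (23.1%) held it and 76.9% were identical in both genes. The reference is of build GRCm38 and the authors' of mm9, and the alleles of NMRI mice were not analysed here.

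The regions in front of the alpha genes are also alike, and are shown with that of Alas2 because alpha globin and Alas2 both stood highest in the same library. RefSeq promoters of GRCm38.p6 matched 3 of the 5 members, Hba-a1, Hba-a2 and Alas2. Hbb-b1 and Hbb-b2 were not matched. Of the 250 bases before each start, those of Hba-a1 and Hba-a2 were identical at all 247 positions compared at an offset of 3 bases, so only the first is printed. Capitals mark matches on either strand to 4 short motifs. They are GATAA, the core that GATA factors bind, CACCC, the core that Klf1 binds, and the common promoter elements CCAAT and TATAA.
Hba-a1 (chr11:32283422-32283671, plus strand): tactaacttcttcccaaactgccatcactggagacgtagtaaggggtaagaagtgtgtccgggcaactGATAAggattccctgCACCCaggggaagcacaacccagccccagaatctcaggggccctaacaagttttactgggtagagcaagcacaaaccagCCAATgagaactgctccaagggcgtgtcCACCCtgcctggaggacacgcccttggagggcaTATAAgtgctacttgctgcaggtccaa
Alas2 (chrX:150547167-150547416, plus strand): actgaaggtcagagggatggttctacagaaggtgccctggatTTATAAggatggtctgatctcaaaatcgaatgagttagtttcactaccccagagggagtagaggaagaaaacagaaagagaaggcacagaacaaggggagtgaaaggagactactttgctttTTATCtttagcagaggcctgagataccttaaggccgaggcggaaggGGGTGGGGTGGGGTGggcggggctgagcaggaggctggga
GATA1 and Klf1 are known regulators of erythroid genes. The Hba-a1 window held 1 GATAA, 2 CACCC, 1 CCAAT and 1 TATAA. The Alas2 window held 1 GATAA and 3 CACCC, all on the minus strand, and 2 TATAA matches, 1 on each strand, that overlap each other. Among all 32851 promoter windows of this length, 22.6% held GATAA, 52.0% CACCC, 33.8% CCAAT and 22.8% TATAA on either strand, and 0.968% held all 4. These matches describe letters and do not show binding.

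Alpha globin RNA was by far highest in the WT male pool. On its main row, the one of highest mean, Hba-a1 was at 363, 1592 and 109 FPKM for WT and 325, 226 and 256 for KO. The WT male library stood 4.39-fold above the next highest, and the other WT values lay on both sides of the KO values, so the groups overlapped. On its second row Hba-a1 was at 51.8 FPKM in the WT male and 39.7 in the KO mixed library, at 0.31 to 0.37 in 3 others, and listed at 0 in the WT mixed library.

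Hba-a2 showed another order over the libraries. On its main row it was at 0.12, 433 and 143 FPKM for WT and 0.76, 135 and 189 for KO. Both mixed libraries were near 0 where the other 4 were above 100. On its second row Hba-a2 was at 119 FPKM in the WT male and 44.3 in the WT female library, at 0.67, 0.0021 and 0.32 for KO, and listed at 0 in the WT mixed library. For an alpha globin transcript, 1 fragment was worth about 0.69 FPKM in the WT mixed and 0.18 in the KO male library, so 0.12 and 0.0021 FPKM are worth less than 1 whole fragment each.

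The 4 alpha rows were therefore also summed, although FPKM is scaled by the length of each row's transcript and those lengths are not in the table. Alpha globin was at 363, 2196 and 297 FPKM for WT and 366, 362 and 446 for KO. Apart from the WT male library, the highest of these sums was 1.501 times the lowest. The WT male library was 4.93-fold above the highest of the other 5. The Hba-a1 rows took 99.97% and 99.6% of this sum in the WT and KO mixed libraries, but 74.9% (WT male), 36.8% (WT female), 62.6% (KO male) and 57.5% (KO female) in the other 4. The mixed libraries were thus set apart from the other 4 in the division between copies and not in the sum. They are also the 2 shallowest libraries, and the part of depth in this division was not tested. Single values of Hba-a1 and Hba-a2 are uncertain.

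**Figure D1:**
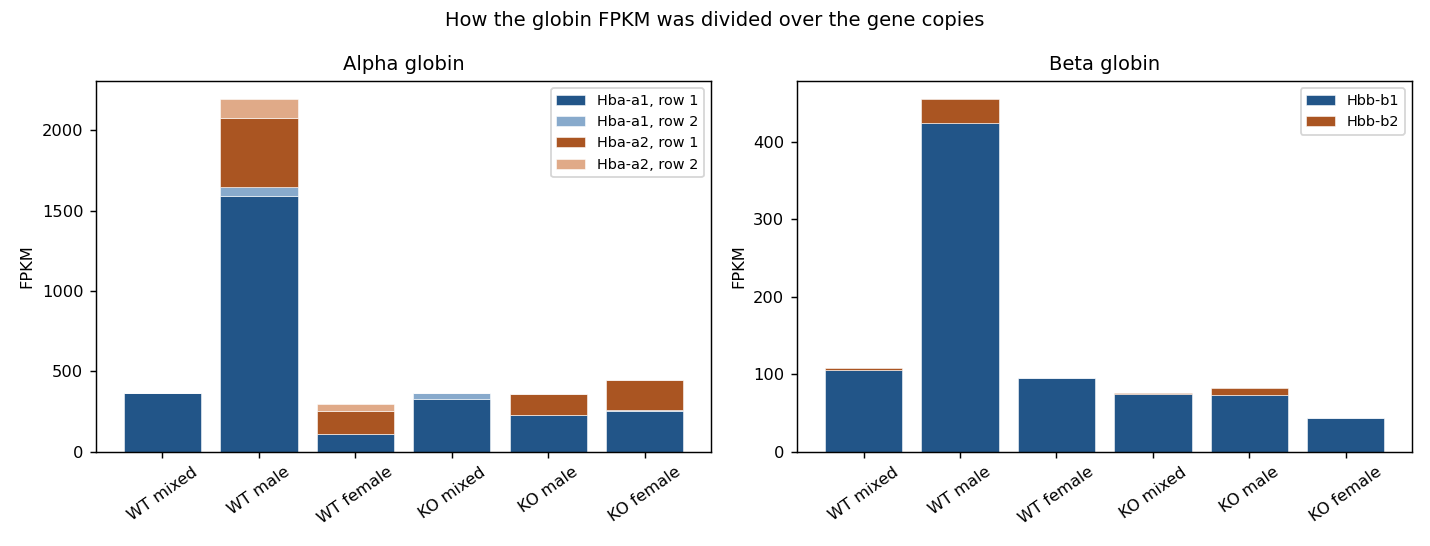
Stacked bars of FPKM (linear axis from 0) for the rows of alpha globin (left) and beta globin (right) in each library, 1 bar per pooled library with no error since each is a single value. The WT male bar reached 2196 FPKM for alpha and 455 for beta globin, and both mixed pools had almost all of their alpha globin on the Hba-a1 rows.

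Beta globin was highest in the same library, and in deposited FPKM its genotypes did not overlap. Hbb-b1, the main adult beta globin row, was at 105.96, 423 and 95.04 FPKM for WT and 74.6, 73.2 and 43.8 for KO. Every KO library was below every WT library, where 5.24% of all tested genes showed this. Hbb-b2, a second beta globin, was at 1.51, 31.9 and 0.00047 FPKM for WT and 1.71, 8.71 and 0.00016 for KO. It was highest in the male pools and near 0 in the female pools of both genotypes. Hbb-b2 made up 1.41, 7.01 and 0.00049% of beta globin for WT and 2.24, 10.6 and 0.00037% for KO. For the beta copies too, fragments can be shared, and sums are safer than single values. Their sum was 107, 455 and 95.04 FPKM for WT and 76.3, 81.9 and 43.8 for KO. In deposited FPKM no KO library reached a WT library in this sum. Division by a factor from each library's upper quartile (1.197 for WT mixed, 0.892 for KO male) puts the KO male sum above the WT mixed sum.

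Alas2 stands on 1 row, and its values followed the globins. It was at 8.43, 37.1 and 5.08 FPKM for WT and 5.32, 5.85 and 6.22 for KO. The WT male library was 4.40-fold above the next, and the other 5 libraries lay within 1.66-fold of each other. In deposited FPKM the WT female library was below all KO libraries, an order that does not hold after division by the upper quartile factors. These levels correspond to roughly 994 fragments in the WT male library, 57 and 39 in the WT and KO mixed and 107 to 148 in the remaining libraries, so the mixed pools are the least precise. In proportion to all globin, Alas2 was at 17.9, 14.0 and 12.9 FPKM per 1000 FPKM of globin for WT and 12.04, 13.2 and 12.7 for KO. In the WT male library this ratio lay inside the range of the other 5.

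**Figure D2:**
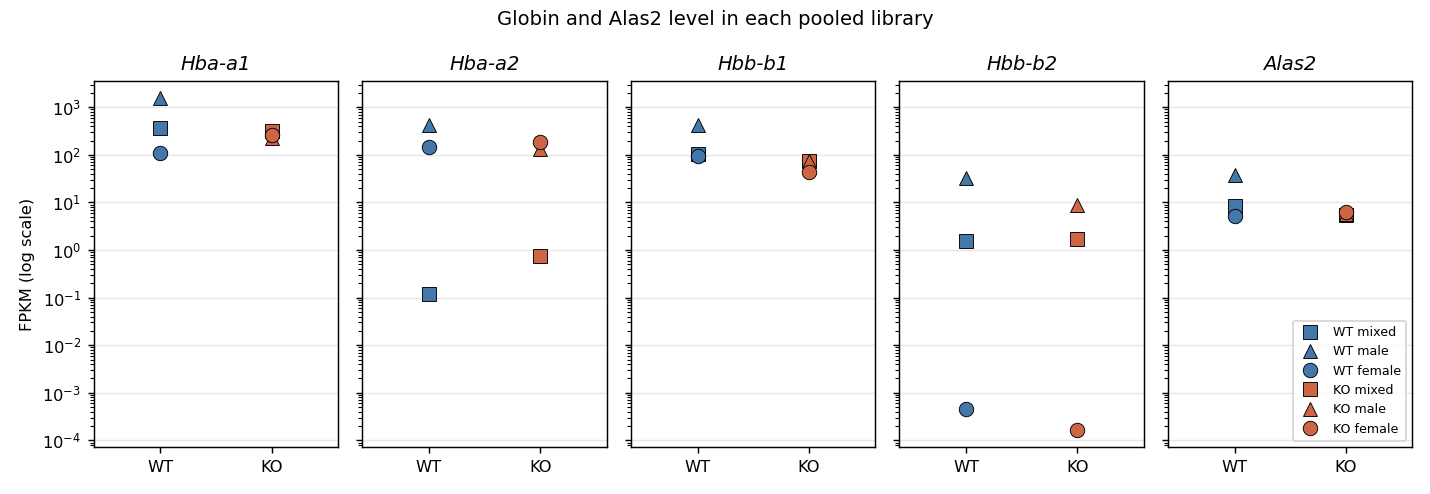
FPKM of each gene on its main row (log axis) in the 3 WT (blue) and 3 KO (orange) libraries, with squares for mixed, triangles for male and circles for female pools. The WT male triangle is the highest point in all 5 panels, at 1592 FPKM for Hba-a1 and 37.1 for Alas2, and Hba-a2 is below 1 FPKM in both mixed pools.

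The ratio of alpha to beta FPKM, over all rows, was 3.38, 4.82 and 3.13 for WT and 4.80, 4.42 and 10.2 for KO. The KO female library stood apart at 10.2, with the highest alpha sum outside the WT male library and the lowest beta sum of all. Globin of both kinds summed to 470, 2652 and 392 FPKM for WT and 442, 443 and 490 for KO. Over the 5 libraries other than the WT male one, this sum spanned 1.25-fold and the ratio of alpha to beta 3.26-fold. This was 0.506% of the summed FPKM of the WT male library and 0.057 to 0.091% of that of the other 5.

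In the comparison of KO with WT, 0 of the 5 members passed at an adjusted p of 0.05 (limma on log2(FPKM + 1), Benjamini-Hochberg over 15067 genes), where 0.836% of all tested genes did. None was higher, against 0.212% of all genes, and none lower, against 0.624%. At an unadjusted p under 0.05 there was 1, Hbb-b1, against 8.88% of all genes. All 5 members passed the filter on low values, and all 5 estimates were negative, with a median of -0.58 against 0.01 for all tested genes. In 1 of the 5, Hbb-b1, the 3 KO libraries were all below the 3 WT libraries, where 5.24% of all tested genes showed this. Of the 8 olfactory epithelium markers, 7 estimates were also negative, with a median of -0.66. In that list 0 passed and 4 had an unadjusted p under 0.05, against 8.88% of all genes. Among these 4, Cnga2, a channel subunit of olfactory neurons, was at 286 ± 69.0 FPKM in WT against 148 ± 36.4 in KO, without overlap. Krt5, a keratin, went the other way without overlap, at 28.9 ± 8.96 in WT against 51.4 ± 15.5 in KO. The part of tissue make-up in the members' estimates was not tested.

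Hbb-b1 averaged 208 ± 187 FPKM for WT against 63.8 ± 17.4 for KO (SD, n = 3 each). Its log2 difference was -1.37 ± 0.46 (SE), with a 95% interval of -2.36 to -0.39 and an adjusted p of 0.27 (limma). By kind of pool, KO Hbb-b1 was at 70.4% (mixed), 17.3% (male) and 46.1% (female) of WT. Without the WT male library the difference was -0.68 ± 0.31, with an adjusted p of 0.66. Hbb-b1 passed in 5 of 19 alternatives. Among them were the fits without the WT mixed library (-1.68, adjusted p = 8.1e-05), without the WT female library (-1.76, adjusted p = 0.014) and in the male and female pools alone (-1.81, adjusted p = 2.2e-05, limma). In each of these fits the WT male library stands beside a single other WT library. With all 6 libraries and the female share as a covariate the adjusted p was 0.020 (limma). Over all 19 alternatives the estimate was negative and the adjusted p ran from 2.2e-05 to 0.68.

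The intervals of the other 4 members included 0. Alas2 averaged 16.9 ± 17.6 FPKM in WT and 5.80 ± 0.45 in KO, a log2 difference of -0.94 ± 0.50 with an interval of -2.02 to 0.15 and an adjusted p of 0.69 (limma). Without the WT male library it was -0.16 ± 0.35. Alas2 passed without the WT mixed library (-1.17, adjusted p = 0.026) and without the WT female library (-1.48, adjusted p = 0.031), fits in which the WT male library is 1 of only 2 WT libraries. Hba-a1 averaged 688 ± 793 in WT and 269 ± 50.6 in KO, with a difference of -0.58 ± 0.67 (interval -2.02 to 0.86), and without the WT male library it was 0.42 ± 0.42, the other direction.

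For the copies with values near 0 the intervals were wide. Hba-a2 averaged 192 ± 221 FPKM in WT and 108 ± 97.1 in KO, with an interval of -4.34 to 3.92 around -0.21. Its difference was 1.49 without the WT male library and -2.81 without the WT mixed library (adjusted p = 2.8e-05, limma), where the WT library that held 0.12 FPKM is gone and the KO library that held 0.76 is kept. Hbb-b2 averaged 11.1 ± 18.0 and 3.47 ± 4.62, with an interval of -2.75 to 1.65, and its difference turned from -0.55 to 0.91 without the WT male library.

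**Figure D3:**
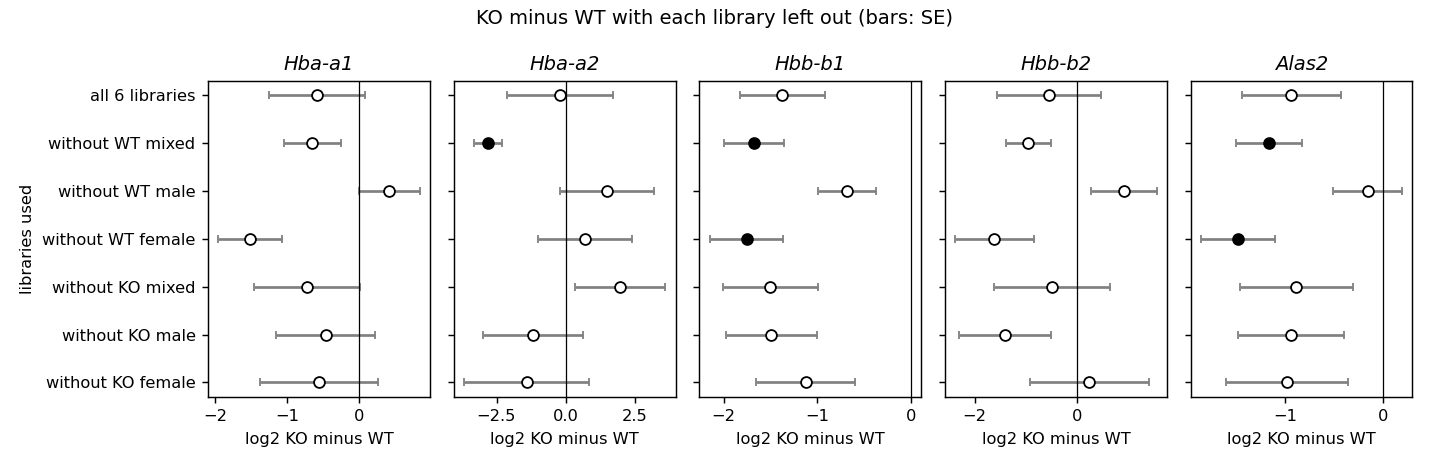
Difference KO minus WT in log2(FPKM + 1) with bars of 1 SE from limma, for all 6 libraries and with each left out in turn; filled points have an adjusted p under 0.05. Without the WT male library the estimates for Hba-a1, Hba-a2 and Hbb-b2 lie above 0, at 0.42, 1.49 and 0.91, and that for Alas2 at -0.16, while Hbb-b1 stays below 0 at -0.68.

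Within the kinds of pool, the sums over copies did not move one way. KO alpha globin was at 100.8% (mixed), 16.5% (male) and 150.1% (female) of WT. KO Alas2 was at 63.1, 15.7 and 123%, and KO beta globin at 71.0, 18.0 and 46.1%. In deposited FPKM, beta globin was the one quantity of these 3 that was lower in KO in all kinds of pool. These percentages are not rescaled, although the libraries' upper quartile factors differ (WT female 0.773, KO female 1.161). Dividing by such factors lowers the female percentages, and Alas2 is then lower in KO in all kinds of pool as well. Each percentage sets 1 library against 1 and has no replicate check.

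Whether the KO difference changed with the sex of the pool was tested by the product of genotype and female share in limma, where 0.126% of all tested genes passed. Of the members, 1 passed, Hba-a1, with a coefficient of 4.03 ± 0.72 (SE) from an all-male to an all-female pool and an adjusted p of 0.0081. The other 4 had coefficients of 1.42 to 2.73 and adjusted p of 0.56 to 0.74. At an unadjusted p under 0.05 there were Hba-a1 and Alas2, where 4.15% of all genes were. For Hba-a1 the KO level was at 14.2% (male) and 235% (female) of WT, while for the sum of all alpha rows these were 16.5% and 150.1%. The Hba-a1 call ended when libraries were rescaled (coefficients of 3.18 and 3.19 by upper quartile and median ratio) and without a filter on low values (adjusted p = 0.75, limma). It also ended without the WT mixed, WT female or KO male library (adjusted p = 0.17, 0.89 and 0.71). Without the WT male library the coefficient was 3.63 ± 1.12 (adjusted p = 0.045, limma). That fit has nearly as many coefficients as libraries and extrapolates the male end of WT from the mixed and female pools. In those pools the Hba-a1 rows took 99.97% and 36.8% of alpha globin, while the alpha sums were 363 and 297 FPKM. It therefore cannot show that the difference by sex holds without the WT male pool. Each genotype has 1 library per sex beside its mixed pool.

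Few genes stood out in the WT male library. Of the 15067 tested genes, 27 (0.179%) were at least 2-fold above each of the other 5 libraries there, and these 27 included all 5 members. At a 3-fold rule there were 13 genes (0.0863%), and 4 of the 5 members, all but Hba-a2, were among them. By the 2-fold rule 1.67% and 0.139% of genes stood out in the WT mixed and WT female library, and 0.305%, 0.0863% and 0.299% among the KO libraries in the usual order, with no member in any of them. Ranked by FPKM in the WT male library, the members took 5 of the first 6 places among the 27. Of the rest, 12 were odorant or trace amine receptors. The remaining 10, named after their values were seen, were Mir20a, Cytl1, Igtp, Col10a1, Iigp1, Snhg9, Tgtp1, Htr3b, Tgtp2 and Klk1b26. Of these, Igtp, Iigp1, Tgtp1 and Tgtp2 are interferon-inducible GTPases. Igtp was at 7.02 FPKM in the WT male library and at 1.94 to 2.997 in the other 5, and Iigp1 at 5.80 and at 0.70 to 1.66.

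Other defining genes of the red cell lineage were not highest where the globins were. The label was checked against 6 further defining markers, of which 5 are in the table: the anion exchanger Slc4a1 and the surface protein Rhag of the red cell membrane, the membrane skeleton protein Epb4.2, the erythroid transcription factor Klf1, and Hemgn, a nuclear protein of blood progenitors. Ahsp was not analysed here. Slc4a1 was at 3.03, 1.19 and 0.60 FPKM for WT and 1.86, 1.10 and 0.48 for KO. Hemgn was at 1.11, 0.55 and 0.57 for WT and 0.31, 0.38 and 0.50 for KO. None of the 5 was highest in the WT male library, where 7.86% of all tested genes were, so 0 of 5 is near that share. In the WT mixed library 45.3% of all tested genes had their highest level. Their FPKM summed to 5.23, 2.58 and 1.48 for WT and 3.11, 2.38 and 1.66 for KO. The highest sum was thus in the WT mixed pool, where Slc4a1 made up 3.03 of it. Klf1, Rhag and Epb4.2 were at no more than 0.59, 0.36 and 0.23 FPKM in any library. None of the 5 exceeded 3.03 FPKM in any library, whereas Alas2 was never below 5.08.

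**Figure D4:**
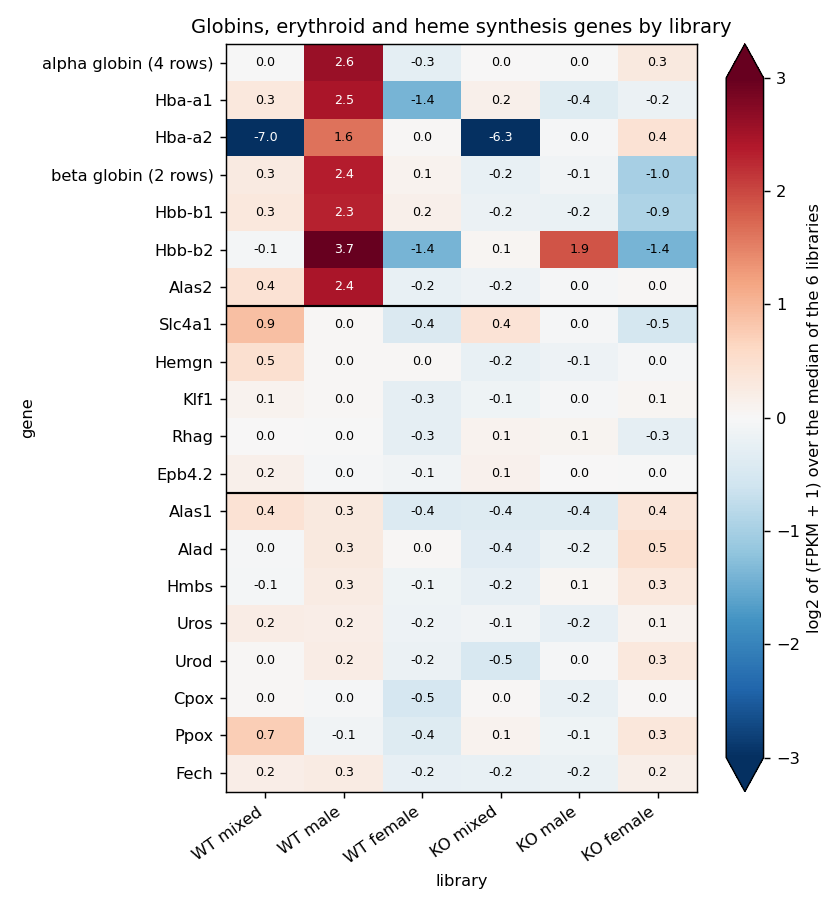
Heat map of log2 of (FPKM + 1) over the median of the 6 libraries, with the members and the sums over copies above the first line, 5 further red cell markers between the lines and the 8 enzymes of heme synthesis below; colours end at -3 and 3 and the printed values do not. The WT male column is at 2.59 for alpha globin, 2.35 for beta globin and 2.44 for Alas2, and between -0.12 and 0.30 for the genes below the first line. Klf1, Rhag and Epb4.2 are below 1 FPKM in every library, so the added 1 holds their values near 0.

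A wider list of 52 erythroid genes had 46 in the table and 28 tested. Of these 28, 0 were higher and 0 lower in KO over all genes tested (limma), 0 had an unadjusted p under 0.05, and the median difference was -0.013 against 0.01 for all genes. Many of its members are also used by other cells. Prdx2, an antioxidant peroxiredoxin abundant in red cells, averaged 234 ± 18.8 FPKM for WT against 207 ± 60.1 for KO (SD, n = 3 each), and Aqp1, a water channel of red cells and of endothelium, at 95.6 ± 14.8 and 120 ± 21.6. In 1 of the 28, Hemgn, the KO libraries were all below the WT libraries (0.75 ± 0.32 and 0.40 ± 0.094 FPKM), where 5.24% of all genes showed this. In the WT male library 4 of the 28 had their highest level, where 7.86% of all tested genes did, and 11 had it in the WT mixed library, where 45.3% did. None was 2-fold above the rest in the WT male library. Highest there were Bpgm, which makes 2,3-bisphosphoglycerate in red cells, Bnip3l, which clears mitochondria from reticulocytes, Gypc, a glycophorin, and Ube2l6, a ubiquitin-conjugating enzyme of late erythroid cells that interferon also induces. Bpgm was at 46.2 FPKM in the WT male library and at 26.3 to 34.98 in the other 5, and Ube2l6 at 15.1 and at 6.77 to 9.74.

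Of the 8 enzymes that act beside and after Alas2, 1 was highest in the WT male library, where 7.86% of all genes were. All 8 genes of heme synthesis were tested and 0 passed in either direction or had an unadjusted p under 0.05, with a median difference of -0.11. Alas1, the form of the first enzyme used outside the red cell lineage, averaged 106 ± 31.0 FPKM for WT against 89.4 ± 28.9 for KO, and was above Alas2 in all 6 libraries. Fech, which inserts iron into heme at the last step, was at 25.6, 26.8 and 18.7 FPKM for WT and 19.0, 19.3 and 25.4 for KO. Of the genes that clear hemoglobin and heme or store the iron, 10 of 12 were tested and 0 passed. Hmox1, the inducible heme oxygenase, was at 28.3, 22.7 and 12.6 FPKM for WT and 11.54, 10.6 and 19.8 for KO and was not highest in the WT male pool. Slc40a1, the iron exporter, was the one gene of this list whose KO libraries were all above the WT libraries (1.59 ± 0.095 and 2.62 ± 0.30, adjusted p = 0.61), where 7.46% of all genes showed this. Among other globins, Cygb, expressed in fibroblasts, was at 14.9 ± 4.95 and 17.7 ± 0.88 FPKM and Mb, myoglobin of muscle, at 1.22 ± 0.42 and 1.07 ± 0.51, and neither passed.

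Genes of other blood and vessel cells were set beside the globins, since blood and marrow carry them together. The neutrophil and marrow list summed to 728 FPKM in the WT male library and to 361 to 819 in the other 5, the platelet list to 27.9 and to 16.1 to 28.7, the lymphoid list to 32.6 and to 16.8 to 45.99, and the endothelial list to 25.8 and to 20.9 to 45.7. None of the 4 sums was highest in the WT male library. Single neutrophil genes were, since 5 of the 16 (S100a8, S100a9, Camp, Retnlg and Cxcr2) had their highest level there, where 7.86% of all genes did. Camp, a granule peptide of neutrophils, was at 37.6 FPKM in that library and at 11.95 to 30.9 in the other 5. In the platelet list 1 of 6 genes was highest there, and in the lymphoid and endothelial lists 0. The part of neutrophil content in the globin values was not tested. S100a8 and S100a9, abundant in neutrophils, were at 163 and 192 FPKM there, and the WT mixed library held 162 of S100a8 and the KO mixed library 179 of S100a9. Ltf, lactoferrin of neutrophils and of glands, had the highest mean of the neutrophil list, stood at 274 FPKM in the WT male library and at 355 to 613 across KO, and was at 176 ± 85.7 FPKM in WT against 465 ± 133 in KO (SD, n = 3 each), with an adjusted p of 0.068 (limma). Of the neutrophil sums above, Ltf made up 274 of 728 FPKM in the WT male and 355 of 812 in the KO mixed library. It made up 426 of 649 in the KO male and 613 of 819 in the KO female library, so the order of these sums depends on Ltf. Pecam1, an adhesion protein of endothelium, ranged from 3.10 to 3.94 FPKM across WT and from 4.92 to 7.04 across KO. In 7 of the 10 endothelial genes the KO libraries were all above the WT libraries, where 7.46% of all genes showed this. All 10 estimates were positive, 0 passed over all genes and 4 had an unadjusted p under 0.05, against 8.88% of all genes. In the bone list all 7 estimates were positive, 0 passed and 6 had an unadjusted p under 0.05, against the same 8.88%, with Bglap, the osteocalcin gene, at 154 ± 8.34 FPKM in WT against 318 ± 95.3 in KO. In the neutrophil list 1 of 16 passed, where 0.836% of all genes did. It was Cd177, a neutrophil surface protein, which rose from 5.38 ± 3.32 to 22.3 ± 8.21 FPKM (adjusted p = 0.041, limma), a call not recomputed under the alternatives. Most of this list went the other way, with 11 of 16 estimates negative and a median of -0.36. An unadjusted p under 0.05 was found for 4 of the 16, against 8.88% of all genes. Of these, Ltf and Cd177 were higher in KO, and Mpo (-0.74) and Ctsg (-0.83) were lower. The part of vessel or bone content in the globin values was not tested.

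Over the 6 libraries, the genes most like the globin sum were ones highest in the WT male library. Pearson's r between log2(FPKM + 1) of a gene and of the 4 summed globins was at least 0.9 for 15 of 13873 genes averaging 1 FPKM or more. The 12 of highest r were Mir20a (0.99), Apoo (0.98), Htr3b (0.96), Frzb (0.95), Igtp (0.94), BC055324 (0.93), Rpain (0.93), Arhgdib (0.92), Iigp1 (0.92), Uxt (0.92), Olfr532 (0.91) and Dgkg (0.91). Most stood out there by little. Apoo, a mitochondrial protein, was at 27.2 FPKM there and at 21.3 to 22.5 in the others, and Arhgdib, expressed in blood cells, at 28.9 and 21.04 to 24.6. Mir20a, a microRNA gene, was at 358 FPKM in the WT male library and listed at 0 in the other 5. FPKM is scaled to transcript length, and how many fragments this value rests on was not estimated. Over the 5 libraries without the WT male pool another 12 genes led, Pnmal2, Polr1b and 2610528E23Rik first, and the lowest r among the 12 was 0.99. In these 5 libraries r was at least 0.9 for 1168 genes, and the lists of 12 had no gene in common. These correlations rest on few libraries that differ in depth, and they are given as a description. The FPKM were not rescaled for them. Of the 5 libraries, the WT female had the lowest globin sum and the lowest upper quartile factor (0.773). The KO female and WT mixed libraries had the highest sums and the highest factors (1.161 and 1.197). The part of library scaling in these correlations was not tested.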

How the data were processed

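RNA sequencing of 6 pooled libraries was used, 3 per genotype. Per the submitters' processing notes, TopHat2 2.0.7, Bowtie, Cufflinks 1.3.3 and Cuffdiff were run against mm9. The authors deposited 1 FPKM value per row and library, a unit inferred from those tools and the values (settings and annotation: not given in the sources used here). Columns naming no sex were taken as the mixed pools, since each genotype had no other library left.

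Where a symbol had several rows (221 symbols), the test used the one with the highest mean. Genes averaging 0.5 FPKM or more were kept (15067). Differences in log2(FPKM + 1) were tested with limma 3.58.1 under R 4.3.3, using a mean-dependent prior variance, p-values adjusted by Benjamini-Hochberg and a threshold of 0.05. Log2 differences understate the change of low genes. The fit was tested on simulated data. Depth was estimated from steps in the low FPKM of 2142 genes with a single transcript of at least 1200 nt, less 150 nt, and is approximate. No counts were used, so no counting intervals are given.

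The members and gene lists were chosen with earlier results of these data known. Genes named are the members, the erythroid markers, up to 8 genes per erythroid, heme or globin list and 4 per other list by mean FPKM, and the 12 most like the globins. Gypc, Ube2l6, Slc40a1, Cd177, Mpo, Ctsg, Retnlg, Cxcr2, Cnga2, Krt5 and the genes highest in the WT male library were named after their values were seen. Some genes of the erythroid lists are not reported here and are left out of the lists' counts, sums and the heat map, a choice not based on their values.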

Additional observations from a re-analysis of the deposited data

Results flagged for a closer look

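In deposited FPKM, the difference between KO and WT in Hba-a1 changed with the female share of the pool. The coefficient was 4.03 on the log2 scale from an all-male to an all-female pool (SE 0.72, adjusted p = 0.0081, limma). The test of the product of genotype and sex is what marked it. There is 1 library per genotype and sex. The call ended with upper quartile or median ratio scaling (coefficients of 3.18 and 3.19) and without a filter on low values (adjusted p = 0.75, limma). It also ended without the WT mixed or the KO male library (adjusted p = 0.17 and 0.71, limma). The WT male library held the highest Hba-a1 level, and the WT female library, at 109 FPKM, the lowest, where the Hba-a1 rows took 36.8% of all alpha globin. Without the WT male library the coefficient was 3.63 (adjusted p = 0.045, limma), and without the WT female library 4.44 (adjusted p = 0.89, limma). Each of these fits lacks an end of the WT range and extrapolates to it from the WT pools that remain.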

How the results depend on the processing

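Across 19 alternatives, the 15067 tested genes gave 126 calls as fitted, 30 without a filter, 276 and 267 with upper quartile and median ratio scaling, 348 in the male and female pools only, 289 with a term for the mixed pools and 209 with the female share as covariate, and 40 to 542 with each library left out. With the kind of pool as a replicate block there were 440 calls, 1 member among them, Hbb-b1 (adjusted p = 0.0011). The pools of one kind share a sex make-up but no stated animal or day, and deviations of same-kind pools correlated at 0.36 (mixed), 0.21 (male) and -0.092 (female), so the block is not taken as pairing. The number of members called was 0 as fitted, 1 in the male and female pools only and with the female share as covariate, and 0 to 3 with each library left out. Of the other erythroid genes 0 were called as fitted and with either scaling, and 0 to 1 with each library left out. Estimates for Hbb-b1 and Alas2 stayed negative in all 19 alternatives. The Hba-a1 estimate turned to 0.42 without the WT male library and ran from there down to -1.51 with others left out. Hba-a2 turned to 0.23 at a pseudocount of 0.1, and with libraries left out it ran from -2.81 to 1.96. Hbb-b2 ran from -1.61 to 0.91 with libraries left out. The cause was not tested.

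For the difference by sex, the number of members called was 1 as fitted, 0 without a filter and with either scaling, and 0 to 2 with each library left out, a setting added after seeing the data. The summed FPKM of the members in the KO male and female libraries was 449 and 495 as deposited, 503 and 427 with upper quartile scaling and 504 and 430 with median ratio scaling. Alas2 per 1000 FPKM of globin in the KO mixed library was 12.04 with all rows of a symbol summed. At a 3-fold rule, 45, 13 and 11 genes stood out in WT (mixed, male, female) and 11, 7 and 8 in KO. Depth limits the mixed pools most, with about 57 (WT) and 39 (KO) fragments on Alas2.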

Other observations

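In the WT male library, 2 genes known from cartilage, picked once their levels were known, were also more than 2-fold above each other library. Cytl1 was at 19.9 FPKM there and at 1.004 to 7.17 in the other 5, and Col10a1, the collagen of hypertrophic cartilage, at 5.996 and at 1.13 to 2.37. The bone list did not share this, with 494 FPKM in the WT male library and 321 to 1307 in the other 5. Snhg9, a small nucleolar RNA host gene, was at 4.501 FPKM in the WT male library and listed at 0 in the other 5.

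Embryonic globins were close to absent. Hbb-bh1 was listed at 0 in all 6 libraries, Hbb-y in all but the WT male library, at 0.15 FPKM, and Hba-x in all but the WT mixed library, at 0.64 FPKM.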
